A study of Mus musculus with 25 samples.

Results

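The 72 genes described here encode heat shock proteins and their DnaJ co-chaperones. They are all the rows of the deposited gene table whose symbol begins with Hspa, Hspb, Dnaja, Dnajb or Dnajc followed by a digit, or with Hsp90, Hsph1, Hspd1 or Hspe1, out of 30903 symbols in all. Their messenger RNA was measured in 25 single hypothalamic cells, picked from the arcuate nucleus with the median eminence, of RIP-Cre mice, in which a rat insulin promoter drives Cre recombinase. The cells carried green fluorescent protein from a Cre-dependent adeno-associated virus and were picked by hand after papain digestion of the tissue. The tissue of 2 male mice, (C57BL/6 x DBA)F2 in background and on average 63 days old, was pooled. There is thus a single pooled sample and no contrasting group, so cells were not treated as replicates, no p-value is given, and every value describes these cells.

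Chaperones bind unfolded or partly folded proteins and help them reach or regain their shape. Hsp70 proteins do so in cycles of ATP hydrolysis that DnaJ proteins start and nucleotide exchange factors end, and Hsp90 proteins act later on kinases, steroid receptors and other clients. Some members are made at all times in every cell, while others are switched on when unfolded protein builds up. Heat shock factor 1, the transcription factor Hsf1, then binds heat shock elements in their promoters. Neurons in rodents are known for a high level of the constitutive Hsp70, Hspa8, and for a weak induction of the stress-inducible Hsp70, Hspa1a.

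Levels are given in RPKM, the reads per kilobase of exon after scaling for each cell's read total. A gene at 10 RPKM or more in a cell is called present or at the level there. Read totals, inferred from the spacing of low values, were lowest in cell 9 (854000) and highest in cell 11 (2914000), with 1726000 at the median, where 10 RPKM stands for 17.3 reads per kilobase. Reads carry no molecular identifiers, so the exact 95% intervals given for shares of cells cover counting error only. By such an interval, 0 of 25 cells allows a share of up to 13.7%. All 10 neuronal markers reached 10 RPKM in most cells, and each cell had at least 7 of them. No cell had more than 2 of the 6 markers of any other class, and Gfap, Mog, the 3 C1q genes, Cldn5, Pdgfrb and Rax were at 0 throughout. Per cell the oligodendrocyte markers summed to 0 to 103 RPKM and the tanycyte and ependymal markers to 0 to 107 RPKM, while the sums for astrocytes, microglia, endothelial and mural cells reached 39.8, 1.04, 26.7 and 20.7 RPKM. Mbp, at the level in 14 cells, was the 1 marker of these classes found in most cells, and the part of such RNA in the results was not tested.

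The highest genes moved with depth. The mean of the 50 highest genes of the table ran from 299.9 RPKM in cell 11, the deepest, to 563 RPKM in cell 43, and its rank correlation with depth was -0.91 over the 25 cells. Some members at that level moved in the same direction. Hspa8 correlated with depth at a rho of -0.90, Hsp90ab1 at -0.71 and Hsp90aa1 at -0.43. For Hspa8 and Hsp90ab1, coverage reached at most 0.65 and 1.07 reads per base of exon. Hspa5, in contrast, stood at a rho of 0.05 and 0.20 to 0.91 reads per base. The part of depth in the differences between cells in these genes was not tested.

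Members were common in these neurons. Of the 72, 37 (51.4%) reached 10 RPKM in at least 13 of the 25 cells, beside 13.5% of all genes in the table, and 10 (13.9%) did so in every cell, beside 2.6% of all genes. These 10 were the cytosolic Hsp90 genes Hsp90aa1 and Hsp90ab1, the Hsp70 Hspa8, its exchange factor Hsph1, the DnaJ genes Dnaja1, Dnajb6 and Dnajc7, the endoplasmic reticulum chaperones Hspa5 and Hsp90b1, and the mitochondrial Hspe1. A further 17 members were at the level in 5 to 12 cells and 6 in 1 to 4 cells. The remaining 12 (16.7%) were in no cell, beside 57.3% of all genes. Of these, 4 were listed above 0 somewhere and 8 were at 0 in every cell. Per cell, 29 (cell 43) to 47 (cell 11) members were at the level, with a median of 37, and the members together took 0.683 to 1.21% of all RPKM.

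**Figure D1:**
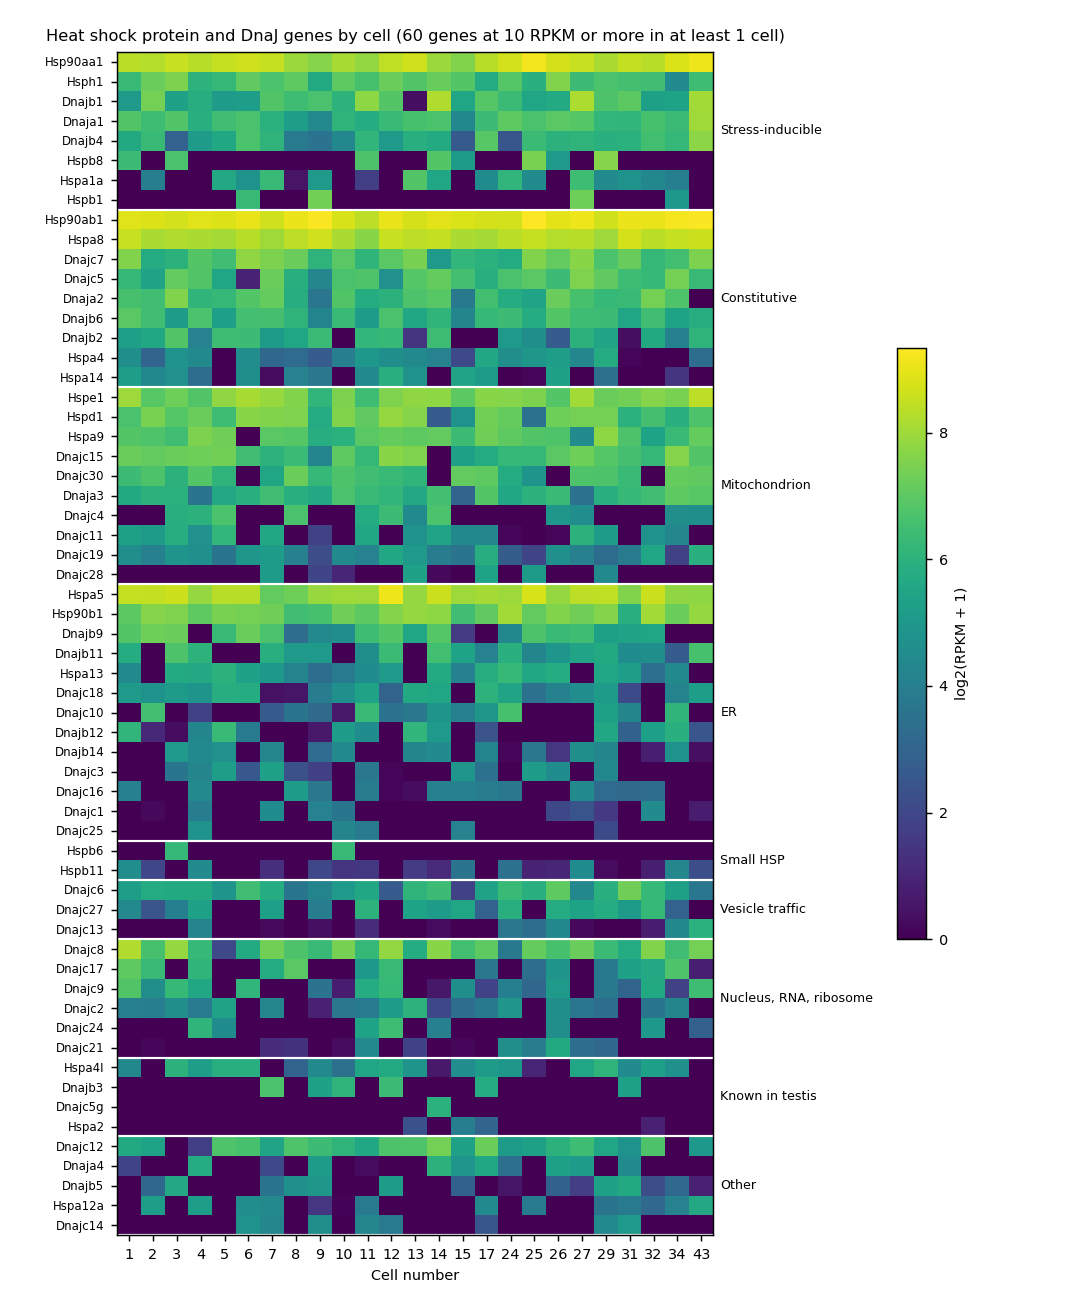
Level of the 60 members at 10 RPKM or more in at least 1 cell, as log2(RPKM + 1), with genes in rows by list, highest mean first, and cells in columns by number. The rows of Hsp90aa1, Hsp90ab1, Hspa8, Hspa5 and Hspe1 are bright in all 25 cells, whereas Hspb8, Hspa1a and Hspb1 are bright in 8, 15 and 4 cells and dark in most others.

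A few genes carried much of the total. The 3 highest members held 29.5% of the RPKM summed over members and cells, and the 10 highest held 57.8%. Hsp90ab1 was the highest member in 24 cells and Hspa5 in the other, cell 12.

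The stress-inducible and the constitutive cytosolic members were compared as lists of 9 genes each. The inducible list held Hspa1a, Hspa1b, Hspb1, Hspb8, Hsph1, Hsp90aa1, Dnajb1, Dnaja1 and Dnajb4, and the constitutive list Hspa8, Hsp90ab1, Hspa4, Hspa14, Dnaja2, Dnajb2, Dnajb6, Dnajc5 and Dnajc7. Of the inducible genes, 6 of 9 were at the level in most cells, and of the constitutive genes 9 of 9. The median of the gene medians was 59.99 RPKM for the inducible list and 88.4 RPKM for the constitutive list. The inducible list thus divided into 5 genes present in nearly every cell, Hspa1a in between, and 3 genes below the level in most cells. These 3 include Hspa1b, whose low value may depend on how reads shared with Hspa1a were counted.

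**Figure D2:**
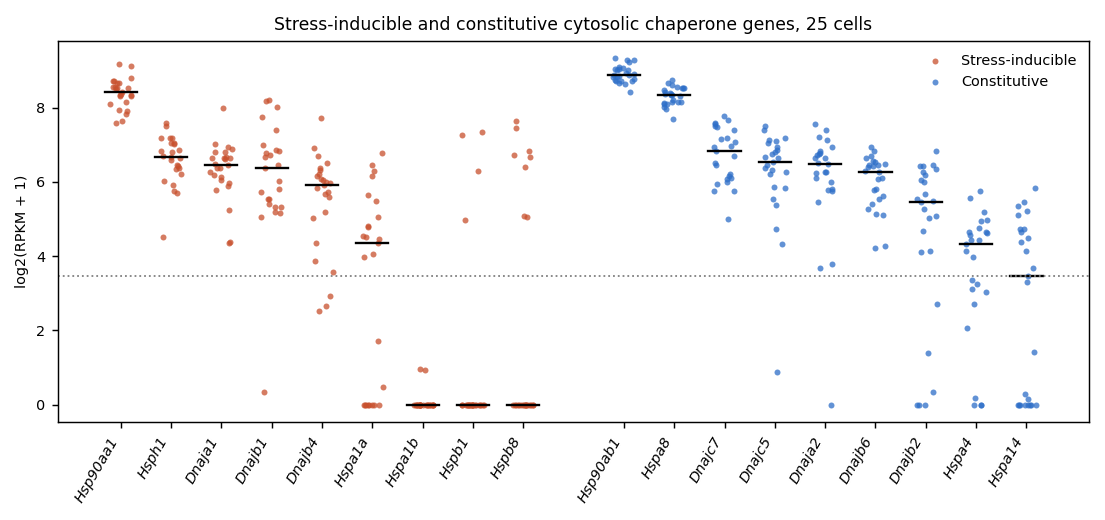
Level of each inducible gene (left, red) and each constitutive gene (right, blue) in the 25 cells, as log2(RPKM + 1), with 1 point per cell, a bar at the median and a dotted line at 10 RPKM. Hspb1 and Hspb8 have their median at 0 and a separate group of cells far above the line, while the cells of Hsp90ab1 and Hspa8 lie close together.

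Among the inducible genes, the Hsp90 gene Hsp90aa1 was highest. It stood at 191 RPKM in cell 15, the lowest, at a median of 346 RPKM and at 579 RPKM in cell 25, the highest. Its constitutive partner Hsp90ab1 stood at 341 RPKM in cell 11, a median of 471 RPKM and 647 RPKM in cell 25. Hsp90aa1 was below Hsp90ab1 in all 25 cells, with a ratio of 0.317 in cell 9, a median of 0.694 and 0.999 in cell 24. The rho of this ratio with depth was -0.07. Of the 50-base stretches of the Hsp90aa1 transcript, 58.5% also occur in transcripts of other genes, chiefly Gm12346, so its reads may be shared.

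The inducible Hsp70 gene Hspa1a was at the level in 15 of 25 cells (60%, exact interval 38.7 to 78.9%) and was listed at 0 in 8. Its values reached 110 RPKM in cell 13, 87 RPKM in cell 27, 77 RPKM in cell 7 and 70 RPKM in cell 24, with a median of 19.4 RPKM over all cells. The constitutive Hsp70 Hspa8 ran from 205 RPKM in cell 11 through a median of 326 RPKM to 430 RPKM in cell 31 and was thus above Hspa1a in every cell. Hspa1a amounted to at most 0.327 of Hspa8, in cell 13, with a median ratio of 0.0585. For Hspa8, 74.8% of 50-base stretches occur in other transcripts, chiefly those of Gm15459.

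Hspa1b, the neighbouring copy of Hspa1a on chromosome 17, was listed above 0 in 2 cells only and never above 0.96 RPKM. The genes lie at chr17:34969190-34972156 (Hspa1a) and chr17:34956436-34959238 (Hspa1b), both on the minus strand of GRCm38 in the GENCODE annotation. Of the 50-base stretches of the Hspa1b transcript, 62.3% also occur in that of Hspa1a, so reads of the shared part cannot be assigned to either, and how the authors counted such reads is not given in the sources used here. Both promoters are printed to show how alike the copies are. Over the 250 bases before the RefSeq start, 247 are identical (98.8%), and each holds 1 match, in capitals, to the heat shock element pair GAANNTTC.
Hspa1a, chr17:34972157-34972406, minus strand: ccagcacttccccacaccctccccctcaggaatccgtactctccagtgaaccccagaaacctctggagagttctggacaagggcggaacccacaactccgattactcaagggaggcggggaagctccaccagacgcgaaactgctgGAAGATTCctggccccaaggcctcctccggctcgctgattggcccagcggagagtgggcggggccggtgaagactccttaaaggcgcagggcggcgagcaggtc
Hspa1b, chr17:34959239-34959488, minus strand: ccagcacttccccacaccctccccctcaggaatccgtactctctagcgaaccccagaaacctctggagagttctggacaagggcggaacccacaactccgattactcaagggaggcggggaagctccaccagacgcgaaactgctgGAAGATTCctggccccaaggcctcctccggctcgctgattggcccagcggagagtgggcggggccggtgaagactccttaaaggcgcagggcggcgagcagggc

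The small heat shock proteins on the inducible list were present in few cells, at substantial levels. Hspb1, which encodes the small chaperone known as HSP25 in mouse, was at the level in 4 of 25 cells (16%, interval 4.54 to 36.1%) and was listed at 0 in the other 21. Of its 50-base stretches, 51.6% occur in the pseudogene Hsp25-ps1. Its values were 163 RPKM in cell 9, 153 RPKM in cell 27, 78 RPKM in cell 6 and 31 RPKM in cell 34. Hspb8, a small chaperone that works with Bag3, reached the level in 8 cells (32%, interval 15.0 to 53.5%), from 32.1 RPKM in cell 26 to 201 RPKM in cell 29, and was at 0 in the other 17. No cell had both genes, and 13 cells had neither. All 4 Hspb1 cells also had Hspa1a, as did 3 of the 8 Hspb8 cells; these overlaps were noticed after the values were seen and were not tested.

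The other inducible genes were found in nearly all cells. Dnajb1, the DnaJ partner of the inducible Hsp70, was at the level in 24 cells (median 81.8 RPKM) and reached 296 RPKM in cell 14. In cell 13, where Hspa1a was highest, Dnajb1 was at 0.26 RPKM, its lowest value. Dnaja1 ran from 19.4 RPKM in cell 15 through a median of 86.1 RPKM to 255 RPKM in cell 43. Hsph1 ran from 21.9 RPKM in cell 34 through a median of 102 RPKM to 190 RPKM in cell 26. Dnajb4 was at the level in 22 cells (median 59.99 RPKM) and reached 212 RPKM in cell 43. Cell 43 was thus highest for Dnaja1 and Dnajb4, whereas Hsph1 and Dnajb1 peaked in other cells. For Dnaja1, 28.8% of stretches occur in other transcripts, and for Dnajb1 0.441%.

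On the constitutive list, the DnaJ genes followed Hsp90ab1 and Hspa8. Dnajc7, which binds both Hsp70 and Hsp90, ran from 31.4 RPKM in cell 14 through a median of 114 RPKM to 219 RPKM in cell 6. Dnajc5, the cysteine string protein of synaptic vesicles, had a median of 91.9 RPKM and its highest value of 182 RPKM in cell 27, and was below 1 RPKM in cell 6 alone. Dnaja2 had a median of 88.4 RPKM, with 189 RPKM in cell 3 and 0 in cell 43. Dnajb6, a DnaJ protein known to hold back aggregation of polyglutamine proteins, ran from 17.5 RPKM in cell 9 through 75.7 RPKM to 123 RPKM in cell 1, with 42.8% of its stretches shared. Dnajb2, a DnaJ protein known from neurons, was at 0 in 3 cells, had a median of 43.2 RPKM and reached 112 RPKM in cell 3. The exchange factor Hspa4 and the ribosome-associated Hspa14 were lowest on the list, at medians of 18.96 and 10.02 RPKM and in 15 and 13 cells.

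Summed per cell, the inducible genes stayed below the constitutive genes. The inducible sum ran from 407 RPKM in cell 15 through a median of 774 RPKM to 1369 RPKM in cell 43. The constitutive sum ran from 931 RPKM in cell 11 through a median of 1277 RPKM to 1519 RPKM in cell 27, and had a rho of -0.59 with depth, against -0.07 for the inducible sum. The inducible sum was the lower in all 25 cells, with a log2 ratio of inducible over constitutive, on the scale of sum + 1, of -1.32 in cell 8, -0.68 at the median and -0.04 in cell 43. In the sums, this direction depended on the highest constitutive genes. Without Hsp90ab1 the inducible sum was above the constitutive sum in 12 of 25 cells (median log2 ratio -0.07), and without Hspa8 in 5 cells (-0.26). Without either of them and without Hsp90aa1, it was above in 11 cells and below in 14 (-0.18). The sums of the remaining genes thus showed no common direction over cells. With the Hsp90 gene of each list left out, the inducible sum was above in 1 cell (-1.02). Without Hsp90aa1 alone it was below in all 25 cells (-1.61). As a difference of mean log2(RPKM + 1), which gives each gene equal weight, the inducible list was also lower in all 25 cells (-1.47). That mean includes Hspa1b, Hspb1 and Hspb8, each with a median of 0 RPKM, and it was not computed without them. It therefore does not show that the inducible genes detected in a cell were lower there.

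**Figure D3:**
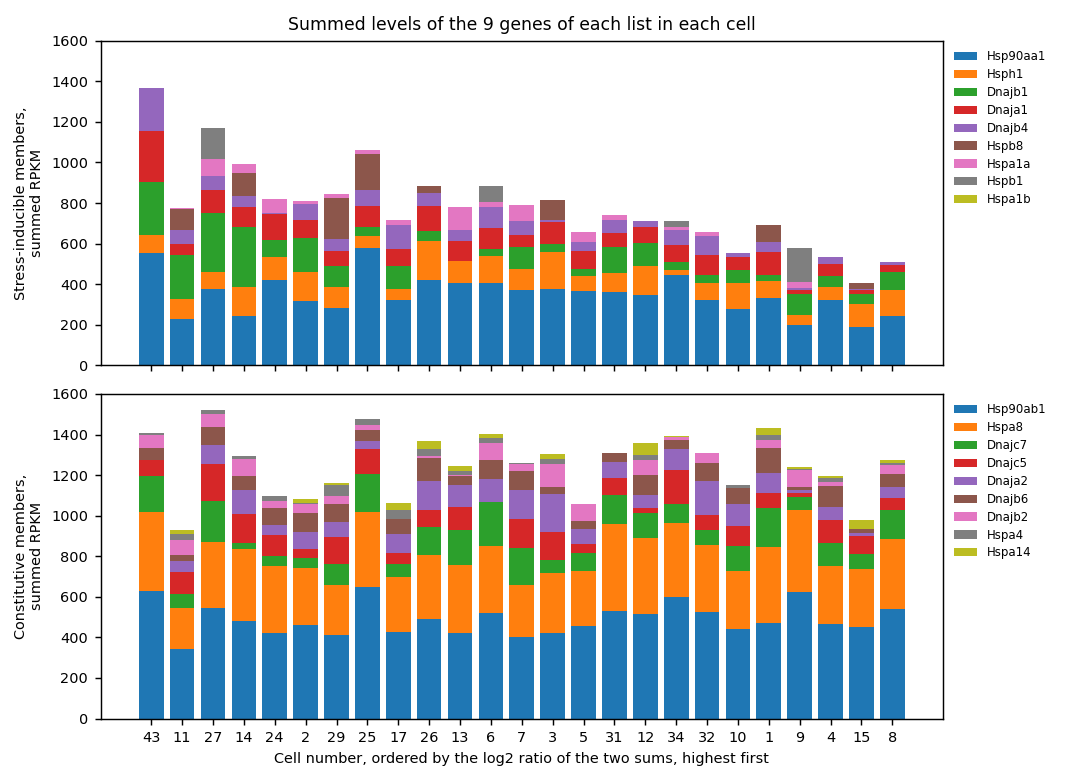
Summed RPKM of the 9 inducible genes (upper bars) and the 9 constitutive genes (lower bars) in each cell, coloured by gene, with cells ordered by the log2 ratio of both sums, highest first. The upper bars run from 407 to 1369 RPKM and the lower bars from 931 to 1519 RPKM, and Hsp90aa1 forms the largest block of the inducible sum in most cells.

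The 3 cells with the highest inducible sums had Hsp90aa1 as their highest inducible gene and differed in the others. Cell 43 had Hsp90aa1 at 556 RPKM, Dnajb1 at 261 RPKM, Dnaja1 at 255 RPKM and Dnajb4 at 212 RPKM, whereas Hspa1a, Hspb1 and Hspb8 were at 0. It also had the fewest genes at the level of all cells (3843) and the highest level of the nuclear RNA Malat1 (196 RPKM). Cell 27, with a sum of 1172 RPKM, had Hsp90aa1 at 376 RPKM, Dnajb1 at 290 RPKM, Hspb1 at 153 RPKM, Dnaja1 at 117 RPKM and Hspa1a at 87 RPKM. Cell 25, with 1061 RPKM, had the highest Hsp90aa1 level together with Hspb8 at 174 RPKM. No cell was high for all 9 genes, since no cell had both Hspb1 and Hspb8. Hspa1b never exceeded 0.96 RPKM, a value that may depend on how reads shared with Hspa1a were counted.

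By the median, the inducible genes varied more between cells than the constitutive genes. The coefficient of variation (CV), the SD over cells divided by the mean, had a median of 0.78 over the 8 inducible genes at the level in at least 3 cells and 0.50 over the 9 constitutive genes, beside 1.27 over 9783 genes of the table. Since the CV falls as the mean rises, each CV was also divided by the median CV of the 200 genes closest in mean, which gives 1.00 as the median over all genes. By this ratio the inducible genes had a median of 1.11, with 5 of 8 above 1, and the constitutive genes a median of 0.81, with 0 of 9 above 1. Among the inducible genes, Hspb1 stood at 2.06, Hspb8 at 1.73 and Dnajb1 at 1.44, but Hsph1 at 0.69. Dnajb1 and Hsph1 had nearly the same mean, 102 and 104 RPKM, with CVs of 0.81 and 0.39. Among the constitutive genes, Dnajb6 stood at 0.59, Hsp90ab1 at 0.63 and Hspa8 at 0.66, and the part of depth and of the high read coverage of Hsp90ab1 and Hspa8 in their low CVs was not tested.

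**Figure D4:**
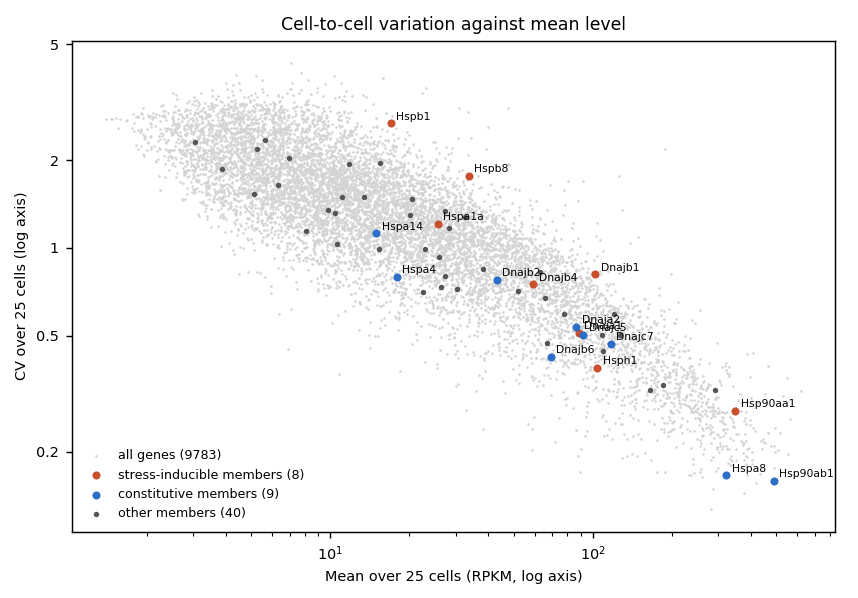
CV over the 25 cells against the mean level in RPKM, both on log axes, for 9783 genes (grey), the inducible members (red), the constitutive members (blue) and the other members (dark grey). Hspb1, Hspb8 and Dnajb1 lie on the upper side of the grey cloud, whereas Hsp90ab1, Hspa8 and Dnajb6 lie on its lower side.

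The inducible genes showed little common movement from cell to cell. Over the 7 inducible genes at the level in at least 5 cells, the 21 pairwise rank correlations had a median of 0.10, between -0.28 and 0.69, beside 0.003 over 33093180 pairs of all such genes, of which the central 95% lay between -0.40 and 0.42. The 36 constitutive pairs had a median of 0.01 and the 63 pairs between both lists a median of 0.10. All genes of a cell share its library and depth, and these values are descriptions over 25 cells. Hspa1a stood at a rho of 0.10 with Dnajb1, 0.15 with Hsp90aa1 and -0.24 with Hsph1.

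Single pairs of members were about as often closely tied as pairs of all genes. Over the 1431 pairs of the 54 members at the level in at least 5 cells, 42 (2.94%) lay above the upper bound of the central 95% of all pairs, and 23 (1.61%) below the lower bound, where 2.5% of all pairs lie beyond each bound by construction. The highest was Hsp90ab1 with Hspa8, at a rho of 0.76, which was 0.39 at fixed depth. Dnaja1 with Hsp90aa1 came next at 0.69, and 0.65 at fixed depth: both were low in cells 9 and 15 and high in cell 43. Dnajb4 with Hspa12a (0.68), Dnajb14 with Dnajc5 (0.62), Dnaja1 with Hsp90b1 (0.62) and Dnajc24 with Dnajc4 (0.61) followed. Dnajb9 with Hspa5, its Hsp70 partner, came after these at 0.60, with and without depth held fixed. The lowest pairs were Dnajc30 with Dnajc6, at -0.67, and Dnajc9 with Hspa1a, at -0.66. Choosing extremes from 1431 pairs favours large values, and none was tested.

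**Figure D5:**
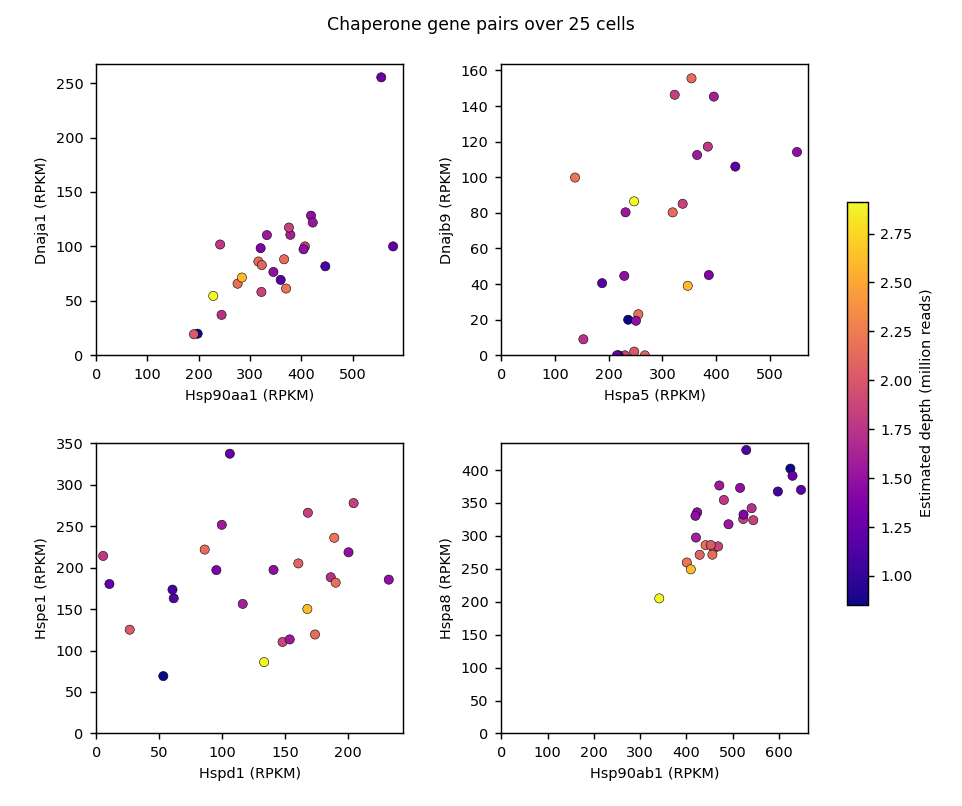
Level in RPKM of 4 pairs of members in the 25 cells, 1 point per cell, coloured by estimated depth. Dnaja1 is higher where Hsp90aa1 is higher (rho 0.69), Dnajb9 tends to be higher where Hspa5 is (0.60), Hspe1 is only loosely related to Hspd1 (0.23), and the deepest cell has the lowest Hsp90ab1 and Hspa8.

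Of the 10 mitochondrial members, 8 were at the level in most cells and 1, Hspe1, in all 25. Hspe1 and Hspd1 encode the Hsp10 lid and the Hsp60 barrel of the mitochondrial chaperonin. Hspe1 ran from 69.2 RPKM in cell 9 through a median of 185 RPKM to 337 RPKM in cell 43. Hspd1 had a median of 141 RPKM and its highest value of 232 RPKM in cell 12, but only 5.51 RPKM in cell 14, 10.5 RPKM in cell 25 and 26.6 RPKM in cell 15. In those cells Hspe1 was at 214, 180 and 125 RPKM, beside its median of 185 RPKM, so none of them was the lowest in Hspe1. Cell 9, the lowest in Hspe1, was also below the median in Hspd1, at 53.3 RPKM. Over all cells their rho was 0.23, and Hspe1 was the higher in 18 of 25. For each gene, 44.8% of the 50-base stretches of the transcript occur in transcripts of other genes, chiefly Hspd1-ps3 for Hspd1 and AC117239.2 for Hspe1.

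Hspd1 and Hspe1 lie head to head on chromosome 1, with 215 bases between the nearest RefSeq starts. A second RefSeq start of Hspd1, at position 55088243, lies beyond the Hspe1 start, so that the genes overlap from there, and its window held no match. The stretch between the nearest starts is shown because the genes start at its ends, and their levels differed between cells. The capitals mark 3 overlapping matches to the heat shock element pairs GAANNTTC or TTCNNGAA, which together form 2 matches to the triple GAANNTTCNNGAA or TTCNNGAANNTTC.
Hspd1-Hspe1, chr1:55087933-55088147, plus strand, Hspd1 to the left and Hspe1 to the right: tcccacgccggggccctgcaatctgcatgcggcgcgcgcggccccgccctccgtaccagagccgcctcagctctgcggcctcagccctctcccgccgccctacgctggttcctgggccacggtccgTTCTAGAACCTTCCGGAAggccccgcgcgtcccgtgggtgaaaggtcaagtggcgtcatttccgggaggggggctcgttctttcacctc

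Of the other 8 mitochondrial genes, 6 were in most cells. The mitochondrial Hsp70 Hspa9 was at the level in 24 cells, with a median of 115 RPKM, and was at 0 in cell 6. Dnajc15 and Dnajc19, co-chaperones of protein import, had medians of 110.5 and 16.6 RPKM and were in 24 and 20 cells. Dnaja3, the main mitochondrial DnaJ protein, had a median of 63.0 RPKM with a CV ratio of 0.64, so it varied less than genes of like mean. Dnajc30 was at the level in 21 cells (median 79.6 RPKM), and 24% of its stretches overlap Bud23 on the opposite strand, whose reads cannot be told apart without strand. Dnajc11, known from the inner membrane cristae, was in 15 cells (median 19.6 RPKM), Dnajc4 in 12, with 102.5 RPKM in cell 5, and Dnajc28 in 5.

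In the endoplasmic reticulum, Hspa5 and Hsp90b1 were present in every cell, while most of their DnaJ partners were patchy. Hspa5, the lumenal Hsp70 known as BiP, ran from 137 RPKM in cell 7 through a median of 255 RPKM to 551 RPKM in cell 12. Hsp90b1, the lumenal Hsp90, ran from 56.3 RPKM in cell 31 through a median of 160 RPKM to 264 RPKM in cell 32. Dnajb9, a DnaJ protein that binds Hspa5 and is induced by unfolded protein in this compartment, was at the level in 19 cells with a median of 45.1 RPKM. Its highest value was 156 RPKM in cell 2, and it was at 0 in cells 4, 17, 34 and 43. In those cells Hspa5 was at 230, 267, 219 and 215 RPKM, beside its median of 255 RPKM. Dnajb11, Hspa13 and Dnajc18 were also in 19 cells each, at medians of 32.5, 30.3 and 26.1 RPKM. The membrane proteins Dnajb12 and Dnajb14 were in 11 and 12 cells, the first with 77.7 RPKM in cell 5. The disulfide reductase Dnajc10 was in 12, with 97.9 RPKM in cell 24, Dnajc3 and Dnajc16 in 10 each, Dnajc1 in 5 and Dnajc25 in 4. Only 6 of the 13 genes were thus at the level in most cells, and their 66 usable pairs had a median rho of 0.03.

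Among the co-chaperones of vesicle traffic, Dnajc5 of the constitutive list had the highest median. Next came Dnajc6, auxilin, which removes clathrin from endocytosed vesicles. Dnajc6 was at the level in 23 cells, with a median of 49.5 RPKM and 157 RPKM in cell 31. Dnajc27, which carries a Rab-like GTPase domain, was in 15 cells (median 20.03 RPKM), and Dnajc13 of endosomes in 5, with 61.4 RPKM in cell 43. Among the nuclear and ribosomal members, the splicing-associated Dnajc8 was at the level in 24 cells with a median of 97.02 RPKM and 297 RPKM in cell 1. The ribosome-associated Dnajc2 was in 16 cells, the histone chaperone Dnajc9 in 14 and Dnajc17 in 13, all at medians below 13 RPKM, while Dnajc24 was in 7 (85.3 RPKM in cell 12) and Dnajc21 in 4 (50.5 RPKM in cell 26). Dnajc9 and Dnajc17 varied widely, up to 110 and 128 RPKM, both in cell 1.

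Dnajc12, a co-chaperone of tyrosine hydroxylase and the other aromatic amino acid hydroxylases, was at the level in 22 cells with a median of 50.6 RPKM and 165.5 RPKM in cell 14. It was not restricted to cells with tyrosine hydroxylase. Th was at the level in 8 cells, 7 of which had Dnajc12, and the rho between both genes was -0.14. Of the remaining members outside the lists, Hspa12a was in 11 cells, Dnaja4 in 8, and Dnajb5 and Dnajc14 in 7 each. Dnaja4 reached 63.7 RPKM in cell 14 and Dnajb5 50.6 RPKM in cell 31. For Dnaja4, 51.9% of stretches overlap Wdr61 on the opposite strand.

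Some members known chiefly from testis or muscle were in no cell, and others were present. Of the 10 genes of the testis list, 6 were in no cell, a share near the 57.3% of all genes in the table. Dnajb13, Dnajb7, Dnajb8 and Dnajc5b were at 0 in every cell, and Hspa1l and Hspb9 reached no more than 0.27 and 0.88 RPKM. Present were Hspa4l, an exchange factor related to Hspa4, in 17 cells (median 24.8 RPKM), and Dnajb3 in 6 cells, up to 102.5 RPKM in cell 7. Dnajc5g and Hspa2 were in 1 cell each: Dnajc5g in cell 14 (61.9 RPKM) and Hspa2 in cell 15 (14.9 RPKM). Of the small heat shock genes outside the inducible list, Hspb2, Hspb3 and Hspb7, known from heart and skeletal muscle, were at 0 in every cell. Hspb6 was in 2 cells, 10 and 3, at 78.7 and 74.2 RPKM, and at 0 elsewhere. Hspb11, which acts in ciliary transport and not as a typical chaperone, was in 6 cells at up to 22.7 RPKM. Outside those lists, Hspa12b reached 9.22 RPKM at most and Dnajc22 was at 0 in every cell.

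Heat shock element pairs were looked for in the RefSeq promoters (GRCm38.p6), from 250 bases before to 50 after each start, of the 58 members that have such a window. The pair GAANNTTC or TTCNNGAA, each its own reverse complement, occurred in 16 of 58 members, and in 18 of their 75 windows (24%), beside 15.1% of 32851 windows of all genes. The triple GAANNTTCNNGAA or TTCNNGAANNTTC, which contains 2 overlapping pairs, occurred in 6 of the 75 windows (8%), beside 0.603% of all windows. The 4 genes with a triple were Hspd1, Hspe1, Hsph1 and Dnajb6, and since windows overlap, the 6 windows hold 3 separate stretches. Of the inducible list, 7 of 8 genes with a window held a pair, all but Dnajb1, and of the constitutive list 1 of 6, which was Dnajb6. A gene was counted if any of its windows held a pair, and no share per gene was computed over all genes. The 7 include both Hspa1a and Hspa1b, whose upstream bases are 98.8% identical. Hsp90aa1 of the inducible list, and Hspa8, Hsp90ab1 and Dnajc5 of the constitutive list, were not among the members with a window. The Dnajb6 promoter is shown as the exception, with the triple in capitals. Dnajb6 was at the level in every cell and varied less between cells than the median gene of like mean.
Dnajb6, chr5:29735648-29735897, plus strand: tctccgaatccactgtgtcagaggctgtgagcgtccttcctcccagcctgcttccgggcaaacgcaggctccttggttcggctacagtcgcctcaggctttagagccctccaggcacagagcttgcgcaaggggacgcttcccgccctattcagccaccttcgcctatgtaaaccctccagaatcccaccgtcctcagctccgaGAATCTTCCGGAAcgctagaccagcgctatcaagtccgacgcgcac
These are matches of letters and do not show binding.

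Partners and regulators of the family were also present. The heat shock factor Hsf1 was at the level in 20 cells (median 53.5 RPKM) and Hsf2 in 14 (median 11.8 RPKM), while the heat shock factor binding protein Hsbp1 was in all 25 (median 315 RPKM). Hspa1a had a rho of 0.25 with Hsf1. Of 20 measured cofactors of Hsp70 and Hsp90, 17 were at the level in most cells. Fkbp4, Stip1, Ahsa1, Cdc37, Ptges3 and Stub1 were in all 25, with medians of 237.5, 140, 123, 118, 117 and 85.7 RPKM. Bag3, the stress-inducible partner of Hspb8, was in 2 cells only, with 63.5 RPKM in cell 15, and both cells also had Hspb8. The lens and muscle small heat shock protein genes Cryab and Cryaa were at 0 in every cell. All 8 subunits of the cytosolic chaperonin were in all 25 cells, led by Cct5 (245 RPKM) and Cct7 (237 RPKM).

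Genes of the response to unfolded protein in the endoplasmic reticulum were frequent, with 13 of 14 in most cells. Pdia3, Calr and Canx were in all 25 cells, at medians of 180, 124 and 106 RPKM, and Pdia6, Atf4 and Manf were in 23 each. Ddit3, a later marker of that response, was in 14 cells (median 42.7 RPKM). The 6 mitochondrial partners were all in most cells, led by the protease gene Clpp in 25 (137 RPKM).

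Immediate early genes, which can be switched on while tissue is dissociated, were set beside the inducible members. Of 16 such genes 9 were in most cells, and their summed level ran from 86.6 RPKM in cell 10 through 1387 RPKM to 3018 RPKM in cell 14. The inducible sum had a rho of 0.43 with this sum, the constitutive sum 0.35, and the sum of Hspa1a, Hspa1b, Hspb1 and Dnajb1 alone 0.27. Without Hsp90aa1 the inducible value was 0.48, and without Hspa8 and Hsp90ab1 the constitutive value was 0.02. The immediate early sum also had a rho of 0.31 with the mean of the 50 highest genes and of -0.53 with the number of genes at the level, and the part of either was not tested. In cell 10, the cell lowest in the immediate early genes, Hspa1a, Hspb1 and Hspb8 were at 0 and Dnajb1 was at 64 RPKM. Cell 14 had Hspa1a at 44 RPKM and the highest Dnajb1 level. Cell 1, however, with an immediate early sum of 2267 RPKM, had the lowest sum of those 4 genes, 32.4 RPKM. No cells that had not been dissociated were analysed here, so the part of the procedure in these levels was not tested.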

How the data were processed

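The authors deposited a table of 33082 rows and 25 cells under a name that speaks of gene counts. The deposited values behave as RPKM, that is, scaled for gene length and read total before deposit, as judged from the values alone: multiplied by exon length, they add up to nearly the same total in each cell (CV 1.65%). Smart-Seq2 was the library method, per the labels' protocols. The submitters' processing notes list bcl2fastq, featureCounts 1.4.6, SAMtools 0.1.19, Picard 2.5.0 and TopHat2 2.0.14, and the builds GRCm38 and mm10. What each did, the annotation, and how duplicate or multiply mapped reads were treated is not given in the sources used here.

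Here, 26 rows named by date numbers were left out, and the row with the highest sum for each of 755 repeated symbols was kept; no member was repeated. Exon lengths came from GENCODE M21. Depth was the read number at which low values fell closest to 1, 2 and 3 reads. On simulated data for 22715 genes at 6 depths it was off by at most 0.143%. The error of depth in the cells themselves, where the authors' exon lengths may differ from those used here, was not tested. Correlations are Spearman's rho, and those at fixed depth are partial. Intervals are Clopper-Pearson. Members and lists were chosen with earlier results of these data known. Levels are given by a rule for all members of both cytosolic lists, for members in at least 13 cells or at 50 RPKM in any cell, and for up to 6 genes of each other list; the rest are counted. Python 3.11.15, pandas 2.3.3 and SciPy 1.17.1 were used.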

Additional observations from a re-analysis of the deposited data

How the results depend on the processing

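Across 10 results and 63 alternative settings, 54 kept the value within a limit set for each result. The limit was the spread over cells, the binomial interval, 1.5 times or, for every rho, the SD of rho over gene pairs. Pairs ran from -0.28 to 0.69 within the inducible list and from -0.35 to 0.76 within the constitutive list. The median rho of a list, 0.10 and 0.01, could therefore hardly count as moved. The median log2 ratio of the inducible over the constitutive sum stayed below 0 in all settings run but depended on the genes in each list, and single cells turned direction. It was -3.47 with only Hspa1a, Hspa1b, Hspb1 and Dnajb1 as the inducible list, -1.61 without Hsp90aa1, -0.26 without Hspa8 (above 0 in 5 cells) and -1.47 as a difference of mean log2(RPKM + 1) over genes. In settings chosen after seeing the data it was -0.18 with Hsp90aa1, Hspa8 and Hsp90ab1 left out (above 0 in 11 of 25 cells), -0.07 without Hsp90ab1 (12 cells) and -1.02 without Hsp90aa1 and Hsp90ab1 (1 cell). Apart from the mean of log2 values, these settings differ only in which genes enter the sums. The CV of the inducible sum was 0.27, and 0.79 for the short inducible list. The rho of Hsp90ab1 with Hspa8 fell to 0.39 at fixed depth, also chosen after seeing the data, against 0.76. The number of members in most cells lay between 29 (20 RPKM) and 45 (1 RPKM). Leaving out the 6 cells lowest in Malat1 or the 3 with the fewest genes moved none of the 10 results beyond these limits. No paired analysis was possible because all cells form 1 group. Zeros may be transcripts lost in a single-cell library.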
